A study of Mus musculus with 2 samples.

Results

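Neural stem cells that had been out of quiescence for 48 h were compared with neural stem cells kept in activation medium, across all genes. The primary cultures were derived from hippocampal tissue of C57BL6/J mice, males, 6 weeks old. The 48 h exit cells had first been held in medium with 50 ng/mL of BMP4 and with FGF2 but no EGF, which the labels call quiescent after 3 days, and then spent 48 h in activation medium to which noggin, a BMP antagonist, had been added at 0.5 ug/mL. The activated cells were grown in medium with 20 ng/mL of FGF2 and EGF and 5 ug/mL of heparin, with no BMP4 or noggin in the labels. Noggin, the earlier BMP4 and the earlier lack of EGF therefore differ together between the groups. Of 640 kept cells in the series, 315 belonged to this comparison, 151 at 48 h and 164 activated. They were chosen by the condition recorded for each cell, without use of any expression value. Both groups were sorted into 1 plate of 384 wells, in 4 gates of rising punctate autofluorescence named low, low-mid, mid-high and high. The gates held 42, 36, 33 and 40 cells at 48 h, against 34, 41, 43 and 46 activated cells.

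Adult neural stem cells rest in a reversible arrest, quiescence, that BMP signalling maintains in the hippocampus and in culture. Resting stem cells share many transcripts with astrocytes, such as glutamate transporters and secreted lipid carriers. When they leave quiescence they enlarge, make ribosomes and enter the cell cycle. Neural stem cells in culture with EGF and FGF2 also make actin and vimentin filaments and a laminin and tenascin matrix.

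Each state was 1 culture, so no difference between the states has a replicate check and no test was made. The 4 gates hold different cells of the same culture and show how a difference held across the sort, not how it would vary between cultures. The 48 h cells filled rows A to H of the plate and the activated cells rows H to P, so that well position and culture cannot be told apart. Levels are CPM, that is, counts scaled to a common total of 1e6, of the summed molecule counts of a group of cells. A log2 ratio is that of the CPM plus 10, 48 h exit over activated, and brackets after it hold a 95% interval that covers counting error only. A gene was called different when the ratio passed 2-fold, and genes with at least 20 counts over both cultures were compared.

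The 48 h cells carried less RNA than the activated cells. A 48 h cell held a median of 24947 molecule counts, between 5676 and 84954, and an activated cell a median of 35946, between 7228 and 97009. Spike-in RNA, added in the same amount to every well, gave 81.3 transcripts per spike-in count at 48 h and 118 in the activated culture (medians over cells), a ratio of 0.691. By gate the ratio of medians was 0.923, 0.903, 0.738 and 0.637 from low to high. Taken from counts summed over the cells of a gate it was 0.798, 0.925, 0.725 and 0.681, so the low gate's value depended on the statistic. Side scatter, a measure of granularity, was 1.91 times as high at 48 h, autofluorescence 1.28 times and forward scatter, a measure of size, 1.04 times. Within a gate the 48 h cells had 1.29 to 1.44 times the autofluorescence of the activated cells, so gates of the same name do not hold cells of the same brightness. By the authors' per-cell column, mitochondrial transcripts took a median of 8.88% of a cell's counts at 48 h and 5.42% in the activated culture. That column leaves out part of these transcripts. Summed over the 15 mitochondrial genome transcripts listed below, the median cell had 280159 CPM at 48 h and 190231 CPM in the activated culture. By the authors' column, ribosomal protein transcripts took a median of 3.98% at 48 h and 6.54% in the activated culture.

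The authors' phase calls, which rest on expression, placed more 48 h than activated cells in G0. There were 22 G0, 21 G1, 50 S and 58 G2/M cells at 48 h, against 1, 23, 61 and 79 in the activated culture. G0 made up 14.6% of the 48 h cells (95% exact binomial interval 9.36 to 21.2) and 0.610% of the activated cells (0.0154 to 3.35), and these intervals cover counting of cells only. At 48 h the G0 cells numbered 0 of 42 in the low gate, 4 of 36 in the low-mid, 5 of 33 in the mid-high and 13 of 40 in the high gate. The 0 of 42 allows a share of up to 8.41%. The single activated G0 cell was in the high gate. The authors' clusters split the cultures almost completely. At 48 h, 109 cells lay in cluster 3, 41 in cluster 0 and 1 in cluster 2, against 1 activated cell in cluster 3 and 163 in cluster 2.

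**Figure D1:**
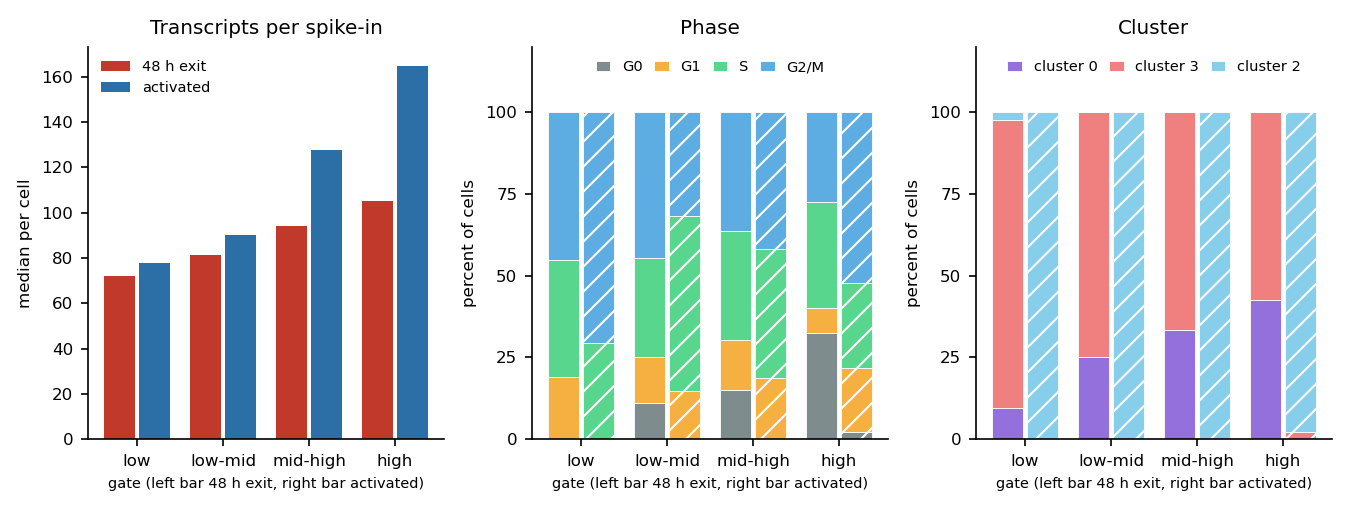
Cells of each culture by sort gate, with 48 h exit in the left bar and activated in the right, hatched bar of each pair. Left, median transcripts per spike-in count. Middle, percent of cells in each phase called by the authors. Right, percent of cells in each of the authors' clusters. The spike-in gap is widest in the high gate, where 32.5% of the 48 h cells and 2.17% of the activated cells were in G0.

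Markers of neural stem cells were detected in both cultures, among them Fabp7, Sox2, Sox9 and Nes. Olig1 and Olig2, listed below with oligodendrocyte progenitors, were also detected in both. Members of the microglial, endothelial and mural lists summed to 0 to 2 CPM at 48 h and 1 to 3 CPM in the activated culture. Their defining genes Aif1, Cldn5 and Rgs5 had 0 counts. Of 10 neural stem cell markers compared, 2 were higher at 48 h and 8 lower, and their median log2 ratio was -0.26. Sox2, a stem cell transcription factor, stood at 167 CPM at 48 h and 184 CPM in the activated culture. Gfap, an astrocyte filament, had 2.42 CPM at 48 h and 1.37 CPM in the activated culture.

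Most genes had a log2 ratio near 0. Of 10780 genes, 83.5% lay within 0.5 of 0 on the log2 scale, and the median log2 ratio was -0.08. The 10 CPM added pull genes of few counts toward 0, and a gene near 20 counts could not pass 2-fold. Shares of all genes given here therefore include genes that could not be called. At least 2-fold higher at 48 h were 135 genes (1.25% of those compared), and 63 of them (0.584%) passed 2-fold in each of the 4 gates. At least 2-fold lower were 176 genes (1.63%), and 72 (0.668%) passed in each gate. Genes with at least 100 counts numbered 8206, among them 126 of the 135 higher and 170 of the 176 lower genes. Any higher ratio was found for 38.8% of genes, a higher ratio in all 4 gates for 14.8% and a lower ratio in all 4 gates for 27.6%. The division between higher and lower depended on the scale. It was 169 higher and 145 lower with TMM scaling, 170 and 143 with the median of ratios, 220 and 173 with totals that exclude mitochondrial transcripts and those of ribosomal proteins, and 52 and 729 per spike-in count. Per spike-in count the median of all genes was -0.40, which is given beside changes on that scale. The 10 CPM were added after scaling, so weakly expressed genes shift less. A strongly expressed gene of unchanged share would lie near -0.53, the log2 of the spike-in ratio of 0.691. Between the activated and quiescent cultures, which were on different plates, 1004 genes were at least 2-fold higher in the activated culture and 716 lower.

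**Figure D2:**
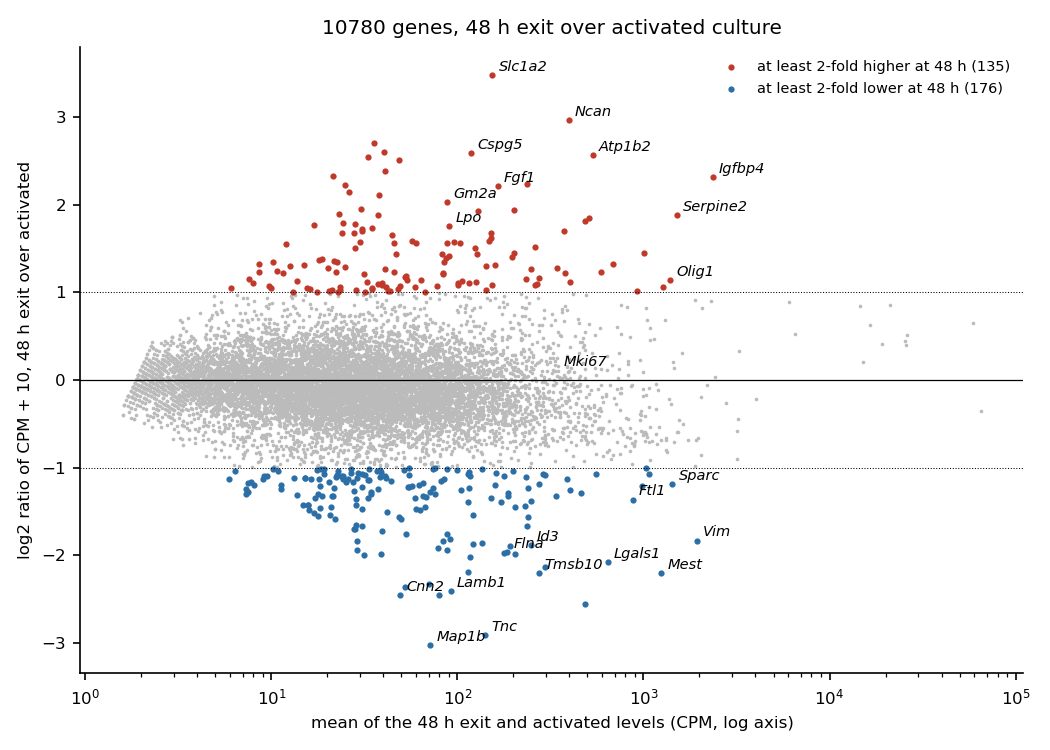
Each point is 1 of 10780 genes. The x axis is the mean of the 48 h exit and activated levels in CPM on a log scale and the y axis the log2 ratio of CPM + 10, 48 h exit over activated. Dotted lines mark 2-fold, past which lie 135 genes above and 176 below. Glial genes such as Slc1a2 and Ncan lead above and cytoskeletal and matrix genes such as Map1b and Tnc below, while Mki67 lies near 0.

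With 10 CPM added, the highest ratio among the named genes was that of a glial glutamate transporter, and a subunit of the glial sodium pump was also high. Slc1a2, the astrocytic glutamate transporter GLT-1, had 128, 214, 307 and 422 CPM in the low, low-mid, mid-high and high gates at 48 h, against 15.1, 16.4, 10.1 and 22.8 CPM in those gates of the activated culture. Every 48 h gate was above every activated gate, and at 48 h the level was higher in each brighter gate. The log2 ratio was 3.48 (3.29 to 3.66), and 2.96 per spike-in count. With 1 CPM added in place of 10 it was 4.01, below Scrg1, Aldh1a1 and S100b at 4.90, 4.48 and 4.17. Atp1b2, the beta subunit of the glial sodium pump, had 453, 609, 959.9 and 1355 CPM in the 48 h gates, against 104, 146, 142 and 166 CPM in the activated gates, a log2 ratio of 2.56 (2.47 to 2.66). Of 17 genes of glial ion pumps, channels and junctions compared, 11 were higher and 6 lower, and 3 passed 2-fold, all higher. Their median of 0.23 turned to -0.07 per spike-in count.

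Amino acid transporters differed in both directions. Of 15 compared, 7 were higher and 8 lower, 4 passed 2-fold upward and 3 downward, and the median was -0.04. Slc38a3, the system N glutamine transporter of astrocytes, had 268, 340.2, 325 and 347 CPM in the 48 h gates, against 78.0, 73.3, 62.7 and 88.9 CPM in the activated gates. Slc7a5, the large neutral amino acid transporter, stood at 189 CPM at 48 h and 60.1 CPM in the activated culture. Slc38a1, a system A glutamine transporter, was at 31.0 CPM at 48 h and 102 CPM in the activated culture (-1.45). Slc6a6, the taurine transporter, had 14.0, 6.77, 14.4 and 14.8 CPM in the 48 h gates, against 44.2, 45.2, 54.9 and 89.4 CPM in the activated gates (-1.72).

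Secreted glial and lipid proteins had the highest median of the lists compared. Of 17 compared, 13 were higher at 48 h and 9 passed 2-fold, against a background of 1.25%, and the median log2 ratio was 1.11, or 0.59 per spike-in count. Serpine2, a secreted inhibitor of thrombin-type proteases, had 2071, 2144, 2297 and 2763 CPM in the 48 h gates, against 578, 604, 548 and 742 CPM in the activated gates, a log2 ratio of 1.88 (1.83 to 1.93). Igfbp4, a binding protein of insulin-like growth factors that is in no list, had 3327, 3764, 4149 and 4235 CPM in the 48 h gates, against 599, 636, 695 and 972 CPM in the activated gates (2.31). Scrg1, a small secreted glial protein, was nearly absent from activated cells, at 42.4 CPM at 48 h and 0.457 CPM in the activated culture. Apoe, the main lipid carrier of astrocytes, was uneven, with 40.8, 29.4, 62.2 and 101 CPM in the 48 h gates, against 18.6, 18.7, 6.16 and 6.45 CPM in the activated gates. Its log2 ratio ran over the gates between 0.46 and 2.76. The 1 secreted gene at least 2-fold lower was Sparc, a matrix-binding glycoprotein, with 866 CPM at 48 h and 1989.9 CPM in the activated culture, although its relative Sparcl1 stood at 47.3 CPM at 48 h and 2.29 CPM in the activated culture.

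The astrocyte list had 13 of 15 compared genes higher at 48 h, with a median of 0.75, or 0.28 per spike-in count. S100b, a calcium-binding protein of astrocytes, had a log2 ratio of 2.55, and 10 of the 15 were higher in every gate, beside 14.8% of all genes. Aldh1l1, a folate enzyme widely used to mark astrocytes, went the other way, at 53.8 CPM at 48 h and 106 CPM in the activated culture (-0.87), as did Fgfr3, an FGF receptor, at 8.73 CPM at 48 h and 29.6 CPM in the activated culture (-1.08). The summed level of the list was above the activated 90th percentile in 87 of 151 48 h cells. Gjb6 and Slc7a10 had 0 counts in both cultures.

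**Figure D3:**
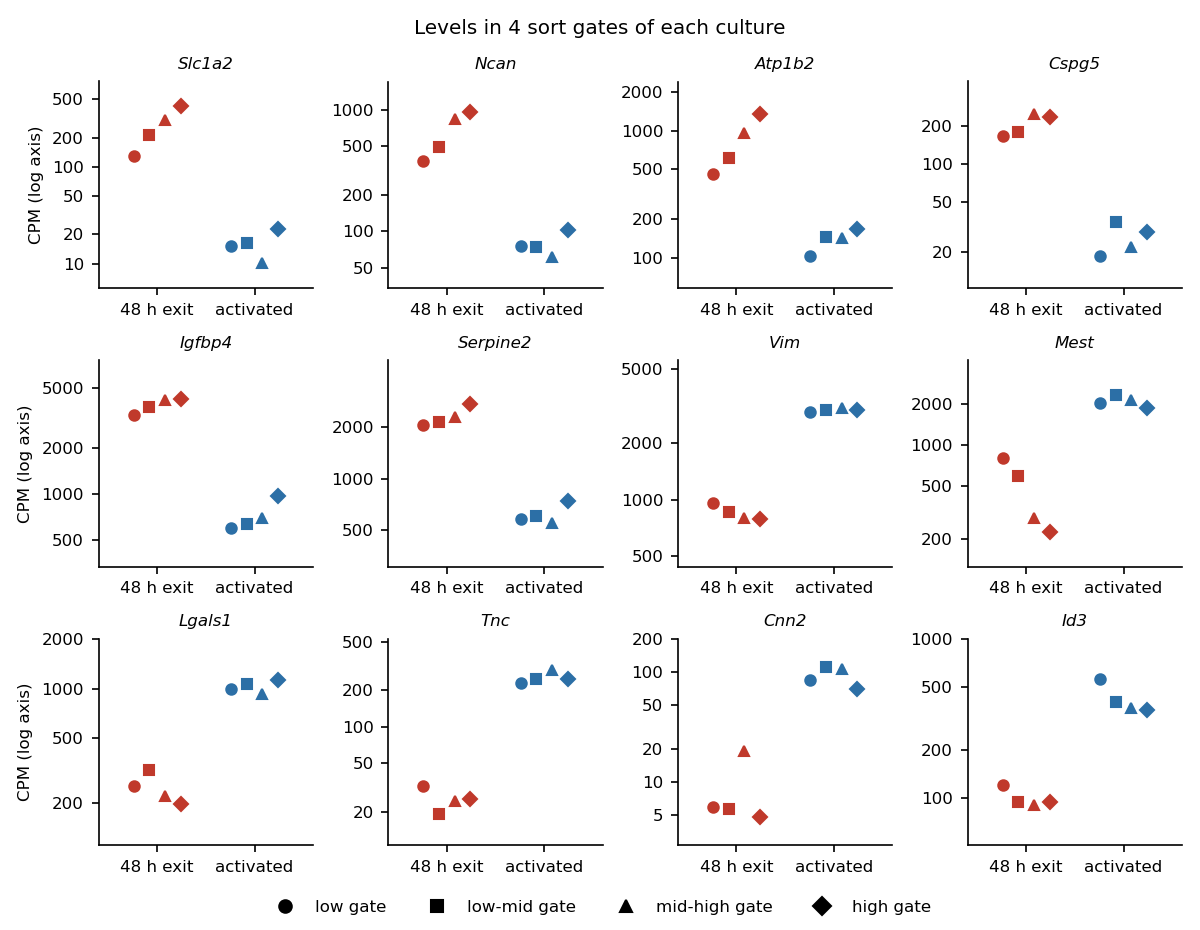
Levels of 12 genes in CPM on log axes, 48 h exit on the left and activated on the right of each panel, with 1 marker per sort gate. In all 12 panels the 4 gates of 1 culture lie wholly above or wholly below those of the other. Slc1a2, Ncan and Atp1b2 differ widely among the 48 h gates, as does Mest in the other direction, while Vim stays between 792 and 961 CPM in the 48 h gates.

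Proteoglycans and neural adhesion molecules of the cell surface were split between a raised group and tenascin. Ncan, the proteoglycan neurocan, had 376, 494, 839 and 953 CPM in the 48 h gates, against 75.6, 74.0, 61.1 and 102 CPM in the activated gates (2.97). Bcan, brevican, had 566, 582, 628 and 556 CPM in the 48 h gates, against 171, 197, 147 and 177 CPM in the activated gates (1.70), and so was level over the gates where Ncan was not. Cspg5, neuroglycan C, and Cntn1, contactin 1, had log2 ratios of 2.59 and 2.51. Tnc, tenascin C, a matrix protein that binds such proteoglycans, had 32.7, 19.2, 24.4 and 25.7 CPM in the 48 h gates, against 227, 245, 293 and 246 CPM in the activated gates (-2.91). Of 16 genes in the list, 11 were higher and 5 lower, with 6 past 2-fold upward and 1, Tnc, downward. The list median of 0.41 turned to -0.07 per spike-in count.

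Markers shared with oligodendrocyte progenitors were higher at 48 h in 6 of 8 genes, with a median of 0.45, or 0.12 per spike-in count. Olig1, a lineage transcription factor, had 1611, 2039, 1933 and 1998 CPM in the 48 h gates, against 892, 902, 680.4 and 956 CPM in the activated gates (1.14). Lhfpl3, a membrane protein of these progenitors, stood at 52.4 CPM at 48 h and 9.14 CPM in the activated culture (1.70), and Cspg4, the NG2 proteoglycan, at 30.8 CPM at 48 h and 10.2 CPM in the activated culture (1.01). Sox10 and Gpr17, which define committed progenitors, had 0 counts in both cultures.

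Genes of the actin cytoskeleton were lower at 48 h and had the lowest median of the lists compared. Of 33 genes of actin filaments and of serum response factor (SRF) targets compared, 31 were lower at 48 h and 2 higher, 15 were at least 2-fold lower, against a background of 1.63%, and none was 2-fold higher. The median log2 ratio was -0.90, lay between -1.11 and -0.83 over the gates and was -1.43 per spike-in count. Together these transcripts made up 11469 CPM at 48 h and 20567 CPM in the activated culture. The change held cell by cell: 150 of 151 48 h cells lay below the 10th percentile of activated cells for the summed level. Over phases of the 48 h culture the sum stayed between 10972 CPM in G0 and 11941 CPM in S cells, against 20233 CPM in G1 and 20894 CPM in S cells of the activated culture.

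The list also holds Lgals1, galectin 1, a lectin rather than an actin binder. It had 252, 315, 220.2 and 197 CPM in the 48 h gates, against 995, 1066, 929 and 1123 CPM in the activated gates (-2.08). Flna, the cross-linker filamin A, had 95.6, 59.9, 75.6 and 56.7 CPM in the 48 h gates, against 339, 284, 329 and 279.6 CPM in the activated gates (-1.97). Cnn2, calponin 2, had 5.83, 5.65, 18.9 and 4.72 CPM in the 48 h gates, against 85.0, 112, 107 and 69.9 CPM in the activated gates (-2.46). The actins themselves differed less. Actg1, cytoplasmic gamma actin, stood at 2200.0 CPM at 48 h and 4125 CPM in the activated culture (-0.90), and Actb, beta actin, at 2534 CPM at 48 h and 3798 CPM in the activated culture (-0.58). Counts of Actb, Actg1, Tmsb10 and Tmsb4x may include reads of near-identical copies. The 2 genes not lower were Ezr and Myh9, at log2 ratios of 0.23 and 0.09, and both were named after their values were seen.

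SRF binds a short AT-rich element, the CArG box, in the promoters of many genes of actin filaments, and 3 promoters with a perfect box are shown because the list was assembled in part from such targets. Each line gives the 250 bases before the gene's start from RefSeq (GRCm38.p6), 5′ to 3′ on the gene's strand, with the CArG box in capitals. Cnn2 is at chr10:79988350-79988599 on the plus strand, Vcl at chr14:20929148-20929397 on the plus strand and Actg1 at chr11:120348496-120348745 on the minus strand.
Cnn2: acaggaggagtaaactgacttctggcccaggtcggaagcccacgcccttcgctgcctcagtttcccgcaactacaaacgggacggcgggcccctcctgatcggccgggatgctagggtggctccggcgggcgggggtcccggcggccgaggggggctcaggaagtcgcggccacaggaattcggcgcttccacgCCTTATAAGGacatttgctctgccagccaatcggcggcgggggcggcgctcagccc
Vcl: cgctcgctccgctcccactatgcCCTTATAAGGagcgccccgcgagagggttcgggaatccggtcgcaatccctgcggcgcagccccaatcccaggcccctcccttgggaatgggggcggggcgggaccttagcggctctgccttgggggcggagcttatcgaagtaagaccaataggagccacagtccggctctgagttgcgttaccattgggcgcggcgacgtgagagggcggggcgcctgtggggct
Actg1: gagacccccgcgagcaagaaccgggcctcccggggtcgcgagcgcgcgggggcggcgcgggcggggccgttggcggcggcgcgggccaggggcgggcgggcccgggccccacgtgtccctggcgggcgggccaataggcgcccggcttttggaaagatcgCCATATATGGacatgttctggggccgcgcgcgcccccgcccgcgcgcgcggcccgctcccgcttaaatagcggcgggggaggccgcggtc
The box begins 56 bases before the start in Cnn2, 227 in Vcl and 90 in Actg1. Cnn2 and Vcl hold the same 10 letters and had log2 ratios of -2.46 and -0.67, so an identical box went with differences of unlike size. Vcl, the focal adhesion protein vinculin, stood at 41.5 CPM at 48 h and 71.8 CPM in the activated culture. Searched by name on both strands, a CArG box was found in the windows of 6 of 29 matched genes of the list (20.7%), beside 116 of 8174 matched genes compared (1.42%). The 6 genes were Actg1, Cnn2, Myl6, Myl9, Vcl and Vil1, and the motif was chosen after the list's change was known. A CArG box was also in 16.7% of 12 matched Wnt and Hedgehog genes, 15% of 20 lineage factor genes and 0 of 14 YAP and TEAD targets. The letters GGAATG, bound by TEAD factors, were in the windows of 8 of the 29 genes (27.6%). They were in 35.7% of 14 matched YAP and TEAD target genes and in 12.1% of all matched genes compared. Of lists higher at 48 h, 30% of 10 matched astrocyte genes and 8.33% of 12 glial pump, channel and junction genes had them. The lowered matrix list had them in 5% of 20 genes. High and low shares thus occurred in lists of either direction. The YAP and TEAD targets had a median log2 ratio of -0.23 over 18 genes, with 13 lower.

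Of 6 intermediate filament and lamin genes compared, 4 were lower at 48 h and 2 higher, 2 were at least 2-fold lower, and the median was -0.43. Vim, vimentin, had 961, 863, 798 and 792 CPM in the 48 h gates, against 2941, 3019, 3097 and 3034 CPM in the activated gates (-1.83). Nes, nestin, which assembles with vimentin, differed less, with 402 CPM at 48 h and 657 CPM in the activated culture (-0.69). Map1b, a microtubule-associated protein of growing processes, had 21.0, 1.13, 3.33 and 6.75 CPM in the 48 h gates, against 127, 136, 151 and 125 CPM in the activated gates (-3.02). Of 26 genes for tubulins and microtubule proteins, 20 were lower and 6 were at least 2-fold lower, with a median of -0.28.

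The extracellular matrix list had 19 of 26 genes lower, 8 of them at least 2-fold, and a median of -0.59. Lamb1, the laminin beta 1 chain, had 23.3, 28.2, 20.0 and 19.6 CPM in the 48 h gates, against 129, 164, 168 and 167 CPM in the activated gates (-2.41). Lamc1, the gamma 1 chain found in most laminins, stood at 134 CPM at 48 h and 365 CPM in the activated culture (-1.38), and Fbln2, fibulin 2, at 16.7 CPM at 48 h and 124 CPM in the activated culture (-2.33). Lamb2, the alternative laminin beta chain, was the 1 gene of the list at least 2-fold higher and is named after its value was seen. It had 49.0, 50.8, 52.2 and 49.3 CPM in the 48 h gates, against 17.5, 14.8, 18.5 and 22.0 CPM in the activated gates (1.05). The beta chains of laminin thus differed in opposite directions, Lamb1 lower and Lamb2 higher, in all 4 gates.

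**Figure D4:**
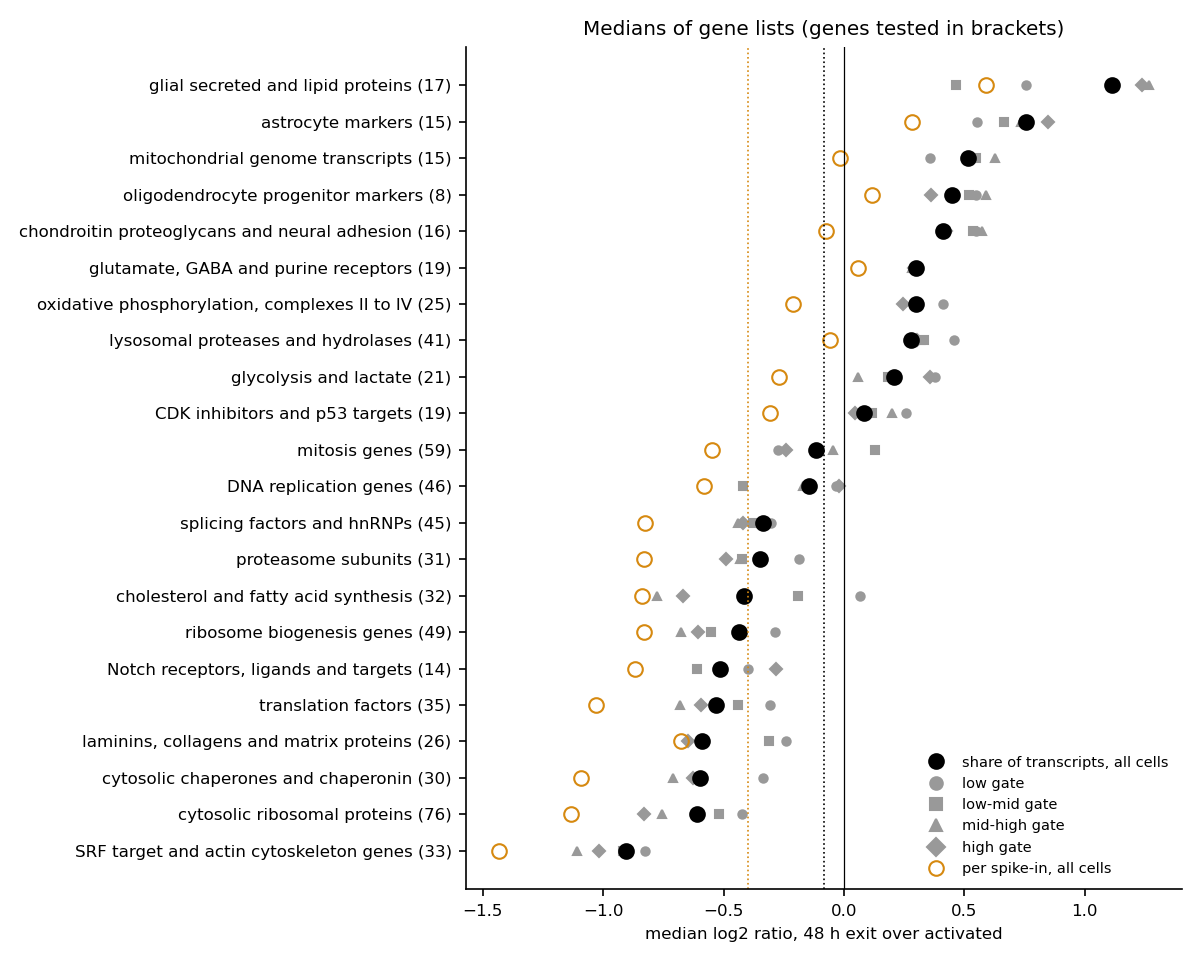
Median log2 ratio, 48 h exit over activated, of 22 of the 62 gene lists, with the number of genes compared in brackets. Black circles are shares of all transcripts over all cells, grey markers the 4 gates and open circles levels per spike-in count, and dotted lines are the medians of all genes at -0.08 and -0.40. The actin list lies at -0.90 and the secreted glial list at 1.11. Lists from ribosomal proteins to splicing factors lie left of the lines on both scales.

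Growth factor signalling components did not share a direction. Fgf1, an FGF without a classical secretion signal, had 179, 232, 284 and 357 CPM in the 48 h gates, against 48.9, 32.7, 37.5 and 71.8 CPM in the activated gates (2.21). Hbegf, a membrane-anchored ligand of the EGF receptor, had 35.0, 7.90, 37.8 and 27.0 CPM in the 48 h gates, against 78.0, 117, 106 and 168 CPM in the activated gates (-1.92). The EGF receptor gene Egfr itself stood at 53.3 CPM at 48 h and 62.8 CPM in the activated culture. Of 16 MAPK feedback and ETS genes, 7 were higher and 9 lower. Spry2, an inhibitor induced by receptor tyrosine kinases, stood at 108 CPM at 48 h and 46.2 CPM in the activated culture (1.08), and Spry4 and Dusp6, feedback genes of the same pathway, each had a log2 ratio of 0.68.

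Id genes are direct targets of BMP signalling, and Id3 was lower at 48 h than in any other culture. It had 120.2, 94.9, 91.1 and 95.2 CPM in the 48 h gates, against 557, 402, 367 and 358 CPM in the activated gates (-1.89). The 24 h exit and quiescent cultures, on the other plate, had 233 and 846 CPM of Id3. Id1 stood at 16.7 CPM at 48 h and 28.3 CPM in the activated culture, and Id2 at 57.5 CPM at 48 h and 54.7 CPM in the activated culture. Of 11 genes of the BMP pathway and its feedback, 8 were lower in every gate, beside 27.6% of all genes, and none passed 2-fold. Notch genes had a median of -0.51 over 14 genes, 10 of them lower. Notch1, a receptor, stood at 82.9 CPM at 48 h and 161 CPM in the activated culture (-0.88), Dll1, a ligand, at 7.03 CPM at 48 h and 21.9 CPM in the activated culture (-0.91), and Dner, a non-canonical ligand, was higher at 0.61. Hes5, a Notch target and the 1 gene of the list past 2-fold, had 3 counts at 48 h and 79 in the activated culture.

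As shares of transcripts, genes of the cell cycle were near equality. Mki67, a marker of cycling cells, had 320.0, 431, 368 and 333 CPM in the 48 h gates, against 334, 295, 366 and 328 CPM in the activated gates, and the gates overlapped. Its log2 ratio was 0.11 as a share and -0.41 per spike-in count. Of 59 mitosis genes, 18 were higher and 41 lower, with a median of -0.12, or -0.55 per spike-in count. Of 46 DNA replication genes, 9 were higher and 37 lower, with a median of -0.15, or -0.58 per spike-in count. The share median of the replication genes turned to 0.09 when the 48 h cells of cluster 3 alone were used. Arl6ip1, a membrane protein listed with the mitosis genes, was the 1 member past 2-fold (1.02). Ccnd2, cyclin D2, had 1042, 1230.2, 1381 and 1424 CPM in the 48 h gates, against 573, 583, 716 and 1045 CPM in the activated gates (0.68), while Ccnd1, cyclin D1, stood at 1037 CPM at 48 h and 1103 CPM in the activated culture. Cdkn1b, the inhibitor p27, was lower at 48 h, at 73.0 CPM against 118 CPM in the activated culture (-0.62).

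The machinery of protein synthesis, the cytosolic chaperones and the proteasome were lower at 48 h in nearly every gene by small amounts. All 76 ribosomal protein genes, 49 ribosome biogenesis genes, 30 cytosolic chaperones and 31 proteasome subunits compared had ratios below 0, and of 35 translation factors 34 did. Ribosomal protein genes lower in each of the 4 gates numbered 72, beside 27.6% of all genes. Their median log2 ratio was -0.42, -0.52, -0.75 and -0.83 in the low, low-mid, mid-high and high gates. Rps2, a small-subunit protein, had 1685, 1487, 1105 and 983 CPM in the 48 h gates, against 2752, 2536, 2567 and 2384 CPM in the activated gates (-0.98). Npm1, nucleophosmin of the nucleolus, had 1401, 1081, 851 and 719 CPM in the 48 h gates, against 2139.6, 1948, 1792 and 1419 CPM in the activated gates (-0.82). In both cultures the brightest gate had the lowest Npm1 level. Many ribosomal protein genes have processed copies, so their counts are uncertain by gene.

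Most energy metabolism genes took a larger share of transcripts at 48 h, and their list medians were below 0 per spike-in count, where the median of all genes was -0.40. Mitochondrial genome transcripts were higher in 14 of 15 cases, with a median of 0.52 that turned to -0.02 per spike-in count. The medians of complex I, complexes II to IV and ATP synthase genes were 0.21, 0.30 and 0.17 and turned to -0.29, -0.21 and -0.34 per spike-in count, and the median of glycolysis genes was 0.21 as a share and -0.27 per spike-in count. Ppargc1a, a coactivator of mitochondrial genes, had 101, 143, 135 and 134 CPM in the 48 h gates, against 33.7, 43.6, 35.9 and 50.5 CPM in the activated gates (1.40), and 0.91 per spike-in count. Pkm, pyruvate kinase, stood at 2994 CPM at 48 h and 1600.4 CPM in the activated culture (0.90). Pygm, a glycogen phosphorylase, stood at 53.8 CPM at 48 h and 6.55 CPM in the activated culture (1.95).

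Lysosomal hydrolases were higher in 30 of 41 genes, 4 of them at least 2-fold, with a median of 0.28 that turned to -0.06 per spike-in count. Gm2a, the activator protein for ganglioside breakdown, had 100.3, 127, 142 and 188 CPM in the 48 h gates, against 25.6, 32.7, 30.8 and 25.4 CPM in the activated gates (2.03). Ctsb, cathepsin B, stood at 353 CPM at 48 h and 142 CPM in the activated culture (1.26). Lysosomal membrane proteins and proton pump genes had no 2-fold change among 29, with a median of 0.08 that is -0.35 per spike-in count. Cholesterol and fatty acid synthesis genes were lower in 26 of 32, with a median of -0.41 that ran from 0.07 in the low gate to -0.78 in the mid-high gate. Fdps, an isoprenoid synthase of that pathway, had 232, 203, 123 and 114 CPM in the 48 h gates, against 282, 340.3, 364 and 313 CPM in the activated gates. Among iron genes, Ftl1, the ferritin light chain, whose counts may include near-identical copies, stood at 485 CPM at 48 h and 1266 CPM in the activated culture (-1.37).

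Imprinted genes included a pair with lower levels in the brighter than in the dimmer 48 h gates. Mest, an imprinted hydrolase-like gene, had 803, 588, 287 and 227 CPM in the 48 h gates, against 2047, 2355, 2138 and 1862 CPM in the activated gates (-2.21). Nnat, neuronatin, had 38.5, 21.5, 5.55 and 10.1 CPM in the 48 h gates, against 209, 172, 133 and 109.6 CPM in the activated gates (-2.46). Of 9 imprinted genes compared, 8 were lower and 2, these ones, were at least 2-fold lower. Trp53i11, a p53-induced gene outside that list, had 156, 158, 120.0 and 116 CPM in the 48 h gates, against 1161, 914, 727 and 772 CPM in the activated gates (-2.55).

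The differences held among cells of the same phase. The 25 genes with the highest ratios and the 25 with the lowest, chosen over all phases, were each past 2-fold within G1, within S and within G2/M cells. The medians of the 25 higher genes were 2.15, 2.16 and 1.96 in G1, S and G2/M, and those of the 25 lower genes -2.14, -2.09 and -2.08. Because the same cells chose these genes, the values describe their spread over phases and are no separate evidence. Slc1a2 had 191, 273 and 208 CPM in G1, S and G2/M cells at 48 h, against 8.28, 18.8 and 18.9 CPM in those phases of the activated culture, and 697 CPM in the G0 cells at 48 h. Mki67 in G2/M cells stood at 670.2 CPM at 48 h and 518 CPM in the activated culture.

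Within the 48 h culture the higher genes stood higher still in G0 cells, while the lower genes differed less uniformly. Phases and clusters were themselves set from expression, so these values describe the cells that the calls picked. Of the 25 higher genes, 24 were higher in G0 than in the other 48 h cells and 9 at least 2-fold, with Atp1b2 at 2342 CPM in G0 cells and at 661, 797 and 652 CPM in G1, S and G2/M cells. Of the 25 lower genes, 19 were lower in G0 cells and 6 higher. Mest showed the largest step, at 127 CPM in G0 cells and 435, 477 and 505 CPM in G1, S and G2/M cells, while Tnc was at 29.9 CPM in G0 and at 25.9, 35.7 and 15.5 CPM in the other phases. Cells of cluster 3 alone, which hold 72.2% of the 48 h cells, had all 25 higher and all 25 lower genes past 2-fold relative to the activated culture.

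**Figure D5:**
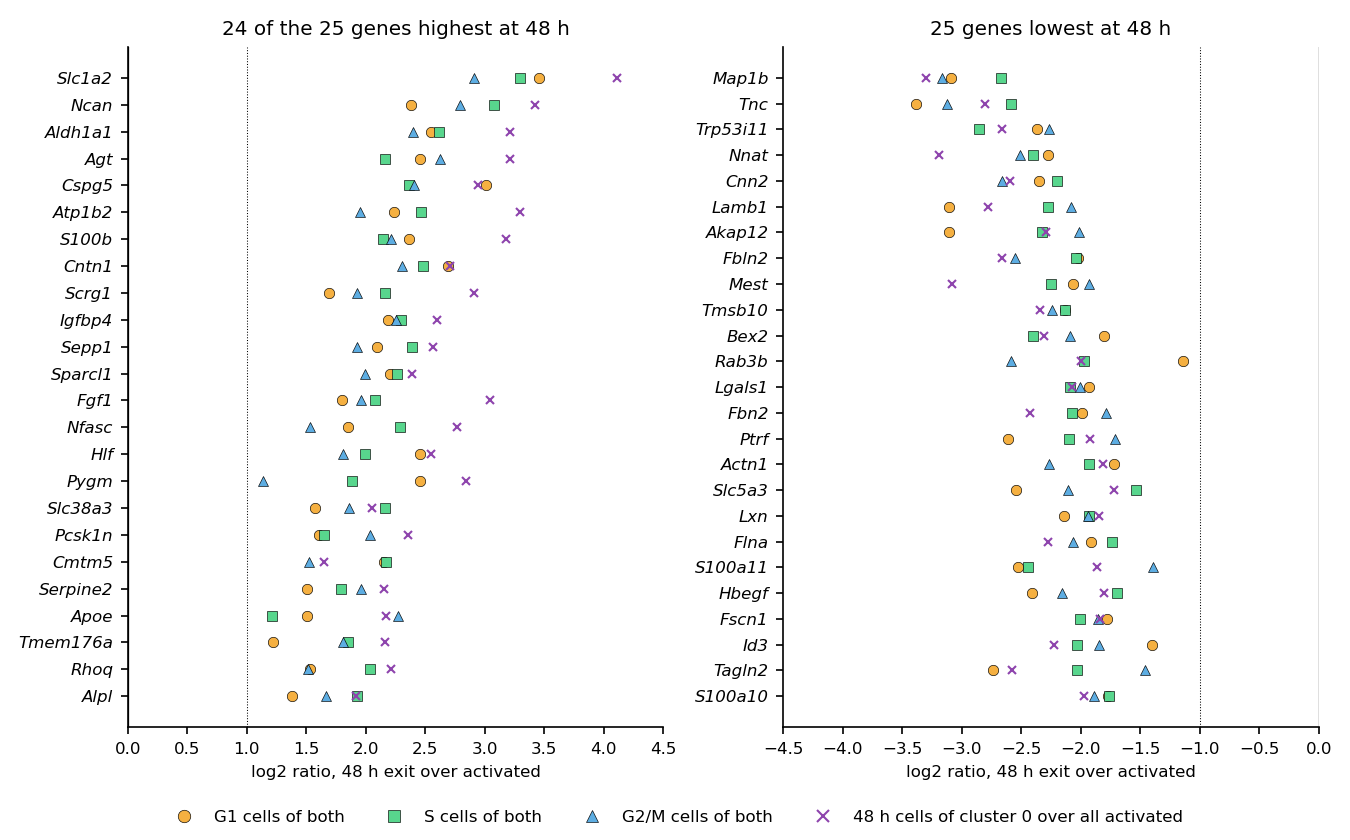
Log2 ratio, 48 h exit over activated, of 24 of the 25 highest genes on the left and the 25 lowest on the right. Circles, squares and triangles compare G1, S and G2/M cells of both cultures with each other, crosses compare the 48 h cells of cluster 0 with all activated cells, and dotted lines mark 2-fold. All genes drawn pass 2-fold in each of the 3 phases, and Slc1a2 in cluster 0 reaches 4.11.

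Shares of cells with a transcript gave the same order after every cell was thinned to 16481 counts, which left out 22 of the 48 h cells and 10 activated cells. Slc1a2 was seen in 91.5% of 129 48 h cells (exact binomial 95% interval 85.3 to 95.7) and in 19.5% of 154 activated cells (13.5 to 26.6). S100b was seen in 47.3% of 48 h cells and 2.60% of activated cells, and Scrg1 in 38.0% of 48 h cells and 0.649% of activated cells. Tnc was seen in 27.1% of 48 h cells (19.7 to 35.7) and 94.2% of activated cells (89.2 to 97.3), and Map1b in 11.6% of 48 h cells and 79.9% of activated cells. Mki67 was seen in 76.0% of 48 h cells and 86.4% of activated cells, although its summed level was slightly higher at 48 h. Without thinning, shares in activated cells were larger, at 40.9% for Slc1a2 and 6.71% for S100b, and at 48 h they were 92.7% and 57.6%.

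Levels of the main genes were set beside those of the other cultures. Quiescent and 24 h exit cells were on the other plate, so plate and state cannot be told apart there. Slc1a2 stood at 291 CPM at 48 h, against 17.1 CPM in activated, 1265 CPM in 24 h exit and 422 CPM in quiescent cells. Ncan stood at 709.7 CPM at 48 h, against 82.0 CPM in activated, 3613 CPM in 24 h exit and 9241 CPM in quiescent cells. Id1 stood at 16.7 CPM at 48 h, against 28.3 CPM in activated, 54.8 CPM in 24 h exit and 339 CPM in quiescent cells, and Olig2 at 1618 CPM at 48 h, against 1005 CPM in activated, 1363 CPM in 24 h exit and 487 CPM in quiescent cells. The 48 h culture was thus lowest for Id1 and highest for Olig2. Vim stood at 844 CPM at 48 h, against 3036 CPM in activated, 594 CPM in 24 h exit and 551 CPM in quiescent cells. Rab3b, a vesicle GTPase, stood at 103 CPM at 48 h, against 487 CPM in activated, 4.60 CPM in 24 h exit and 7.27 CPM in quiescent cells. Rps2 stood at 1264 CPM at 48 h, against 2511 CPM in activated, 596 CPM in 24 h exit and 670.5 CPM in quiescent cells.

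Few genes put the 48 h culture at least 2-fold beyond all the others. Of 9494 genes with at least 100 counts over the 4 cultures together, 1 was at least 2-fold above each of the other 3 cultures and 4 at least 2-fold below. The 1 above was Lpo, lactoperoxidase, a secreted haem peroxidase, with 126, 159, 128 and 157 CPM in the 48 h gates, against 32.6, 27.3, 42.0 and 36.8 CPM in the activated gates and 2.70 CPM in quiescent cells. The 4 below were Id3, Slc6a6, Sparc and Cbs, an enzyme that makes cystathionine from homocysteine. Cbs stood at 17.0 CPM at 48 h, against 47.1 CPM in activated, 69.9 CPM in 24 h exit and 165 CPM in quiescent cells. Sparc had 539.9, 907, 841 and 1047 CPM in the 48 h gates, against 1148, 1645, 1993 and 2430.3 CPM in the activated gates, 1903 CPM in 24 h exit and 2563 CPM in quiescent cells, and was higher in brighter gates of the activated culture.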

How the data were processed

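Per the labels' protocols, single cells were sorted into plates of 384 wells, lysed by heat and made into libraries by SORT-seq, in which barcoded material of a plate is pooled and amplified by in vitro transcription. Seurat 4.1.1, R 4.2.0 and BWA 0.7.15 are named in the submitters' processing notes. Both plates use the same 384 well barcodes, 1 cell a well by sorting, and no doublet caller was run. The authors deposited molecule counts per gene and cell as non-integer estimated counts (expected counts), corrected for molecules sharing 1 of 4096 identifiers; inverting that correction gave whole numbers to within 4.79e-05. The merged table of kept cells equalled the deposited plate table to within 4.94e-05. Columns of the deposited table of cells hold, per the file headers, the count of genes, the percent of mitochondrial and ribosomal counts, scores of phase, phase, cluster, condition and gate, and scatter and fluorescence intensity in arbitrary units. How cells were filtered and phases were set is not given in the sources used here. The design text speaks of 47 cells per condition from the 4 gates, and the tables hold 151 and 164 kept cells.

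Counts were summed per culture, gate and phase and divided by their totals, 4125228 counts at 48 h and 6563487 activated. Log2 ratios used 10 CPM added, and 10780 of 14548 genes with a count passed 20 counts. The exact conditional binomial interval at 95% covers counting error only. Per spike-in levels used the median ratio over cells. Cells are not replicates, so no test was made. Gene lists are described by counts and medians, since each state was 1 culture.

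Named genes were the 25 largest ratios each way with at least 100 counts, a count in 10% of cells of a culture and 1 sign in all gates, without mitochondrial, ribosomal protein and predicted genes; up to 5 members of each of 62 lists; a fixed set of 14 genes from Mki67 to Tnc; and up to 10 genes beyond the other cultures. Lamb2, Hes5, Actb, Actg1, Ezr and Myh9 fall outside that rule and were chosen after their values were seen. The members, lists and rules were chosen with earlier results of these data known. The ratio and its binomial bounds, the bounds without the 10 CPM added, were tested on simulated sums with counting error only. The simulation held no variation between cells or cultures. Versions were edgeR 4.0.16 (TMM factors only) in R 4.3.3, and matplotlib 3.10.9, scipy 1.17.1, pandas 2.3.3 and numpy 2.4.6 in Python 3.11.15. Strand of counting is not given in the sources used here, so overlapping genes cannot be told apart. The result of 1 gene among the 25 largest ratios is not reported here.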

Additional observations from a re-analysis of the deposited data

How the results depend on the processing

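No paired analysis was possible because each state was 1 culture and the labels give no replicate numbers. Of 93 named genes past 2-fold, all kept their direction in 16 alternatives and 70 stayed past 2-fold in each of them. Counts of genes higher and lower at 48 h moved with 1 CPM added in place of 10, to 383 and 606, and in every gate to 142 and 208. Without mitochondrial and ribosomal protein genes in the totals, 220 were higher. Per spike-in count, 52 were higher and 729 lower, and 35 were higher in every gate. The median of all genes was -0.0164 with TMM, -0.0140 with the median of ratios, 0.00502 without mitochondrial and ribosomal protein genes and -0.40 per spike-in count. Genes 2-fold above the other 3 cultures numbered 8 without those genes. In iron, metallothionein and redox genes the median turned to 0.00849, 0.0120 and 0.0412 with the first 3 of these scalings. Per spike-in count it turned to -0.0706 in glial ion pumps, -0.0726 in proteoglycans, -0.31 in CDK inhibitors, -0.27 in glycolysis, -0.29, -0.21 and -0.34 in complex I, complexes II to IV and ATP synthase, -0.0168 in mitochondrial transcripts, -0.25 in fatty acid oxidation and -0.0578 in lysosomal hydrolases. It turned to 0.0258 in immediate early genes on thinned cells and to -0.0091 in CDK inhibitors without the mid-high gate. With 48 h cells of cluster 3 only, chosen after seeing the data as were leaving out Rn45s and the cells of the other culture's cluster, it turned to 0.0914 in replication genes and 0.0792 in histones. The cause was not tested where the scaling itself does not give it. Without thinning, shares at 48 h were 100% for Ncan, 57.6% for S100b and 40.4% for Tnc, and shares in activated cells 40.9% for Slc1a2, 90.2% for Ncan, 6.71% for S100b and for Aldh1a1, 98.2% for Tnc, 89.0% for Map1b and 93.3% for Mki67. Without the high gate, G0 took 8.11% of 48 h cells and 0% of activated cells. A gene at 20 counts has a wide interval, so small ratios of such genes were not detectable at this depth.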
